A study of Homo sapiens with 4 samples.

Results

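Tandem 3' splice sites 3 bases apart are places where an intron can end at either of 2 acceptors separated by exactly 3 bases, so that the next exon starts with or without 3 extra bases. They were taken from 4 lists of alternative splicing events as every alternative 3' splice site event (type A3) whose 2 acceptor coordinates differ by 3. This gave 1851 distinct events among 24326 A3 events (7.61%) and among 287868 events of all types. The 1851 events fell on 1652 acceptor pairs in 1461 genes, because an acceptor pair joined to several 5' splice sites counts as several events.

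The lists come from PacBio long-read sequencing of full-length cDNA from Huh7, a hepatocellular carcinoma cell line. In the siSTAMBPL1 group (2 libraries) the cells were transfected with siRNA against STAMBPL1, a deubiquitinase related to the endosomal enzyme STAMBP. In the siNC group (2 libraries) they were transfected with negative control siRNA. All 4 libraries come from cells grown in DMEM with fetal bovine serum and transfected with a lipid reagent. The labels do not give the time after transfection, the siRNA sequences or whether the libraries came from separate cultures, so p-values measure only the spread between these libraries. Each list gives, for every event, the Ensembl transcripts and the long-read transcripts (identifiers starting with PB) on each acceptor. A PB transcript is a transcript model, not a read, and the lists hold no read numbers. Values of the siSTAMBPL1 replicates 1 and 2 are followed throughout by those of the siNC replicates 1 and 2.

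An acceptor is the AG at the end of an intron, recognised by the small subunit of U2AF and used in the second step of splicing. Where 2 AGs stand 3 bases apart, in the pattern NAGNAG, the spliceosome can join the exon after either of them. The difference keeps the reading frame in coding exons, and can add or remove an amino acid. Such tandem acceptors are among the most common kinds of alternative splicing in mammals. The acceptor nearer the start of the intron is called upstream here, and its use gives the longer exon.

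Sequence could be read for the few acceptor pairs that lie within the RefSeq promoter windows of GRCh38.p14, which span each gene's start. In 17 pairs the whole window of 20 bases before the upstream acceptor and 10 bases after it was readable, and 17 of 17 held NAGNAG. The 8 shown here are those with long-read transcripts whose hexamers or acceptor use illustrate the range. Capitals mark the hexamer with both AGs, and each sequence runs 5' to 3' on the strand of the gene.
POLD1: ccaagctccaacttgccCAGCAGgatggat
MYO1G: ctccttcactgtccttcCAGCAGgcacagg
AHDC1: tccacgactcctctcctCAGCAGccgggcg
IL32: tcacacctgttcctcgcCAGCAGgccttgg
FBLIM1: gttctctttccctcccaAAGCAGagctggc
PSIP1: gccctcggtgctctcccTAGCAGgcgcgtc
DDX5: tcatttctaccggtctcTAGTAGtgcagct
WARS1: acaaaagcatcttttttCAGAAGggaaact

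These windows are at chr19:50398828-50398857 (POLD1, plus strand), chr7:44978993-44979022 (MYO1G, minus), chr1:27603485-27603514 (AHDC1, minus), chr16:3065761-3065790 (IL32, plus), chr1:15764473-15764502 (FBLIM1, plus), chr9:15510320-15510349 (PSIP1, minus), chr17:64506253-64506282 (DDX5, minus) and chr14:100375397-100375426 (WARS1, minus). The 3 bases between the acceptors are exon in the longer form and intron in the shorter form. CAGCAG was the hexamer in 8 of the 17 pairs, and the downstream triplet was CAG in 13 of 17. At POLD1, which encodes the catalytic subunit of DNA polymerase delta, PB transcripts on the downstream acceptor numbered 4 and 1 in siSTAMBPL1 and 12 and 13 in siNC, against 0 and 0 on the upstream acceptor in siSTAMBPL1 and 0 and 2 in siNC. At WARS1, the cytoplasmic tryptophanyl-tRNA synthetase and the only CAGAAG of the 17, the upstream acceptor held 7 PB transcripts and the downstream acceptor 1 over the 4 libraries. FBLIM1, which encodes a filamin-binding adaptor, had 7 upstream and 6 downstream. PSIP1, which encodes the chromatin-binding protein LEDGF, had 4 upstream and 8 downstream. The counts differed between identical hexamers: the CAGCAG of MYO1G had 4 PB transcripts on each acceptor, while that of POLD1 had 2 upstream and 30 downstream. The 2 pairs are not alike in annotation. Ensembl has neither acceptor of MYO1G, so its listing, in siSTAMBPL1 replicate 1 and siNC replicate 1 alone, needed PB transcripts on both. It has both acceptors of POLD1, which was listed in all 4 libraries. An AG stood before each acceptor in 19 of 19 readable 3-base pairs and in 29 of 29 readable pairs 10 to 30 bases apart.

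The 3-base distance was the most frequent short distance between alternative acceptors in each of the 4 libraries. Among distinct events, 188 had acceptors 2 bases apart, 1851 were 3 apart, 727 were 4 apart, 436 were 5 apart and 333 were 6 apart. Events 9 and 12 bases apart, which also keep the frame, numbered 167 and 202. The lists held 1165 and 1031 three-base events in siSTAMBPL1 and 1246 and 1294 in siNC, against 416 and 338 four-base events in siSTAMBPL1 and 421 and 450 in siNC. Between 4 and 30 bases, distances that are multiples of 3 made up 38.6% and 39.2% of A3 events in siSTAMBPL1 and 38.8% and 39.1% in siNC, a range of less than 1 point over the libraries. The introns before 3-base events had a median length of 1546 bases (quartiles 503 and 4364), against 1024.5 bases over all A3 events and 1344, 1256 and 1139 bases at 4, 5 and 6 bases. These are medians without a test.

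**Figure D1:**
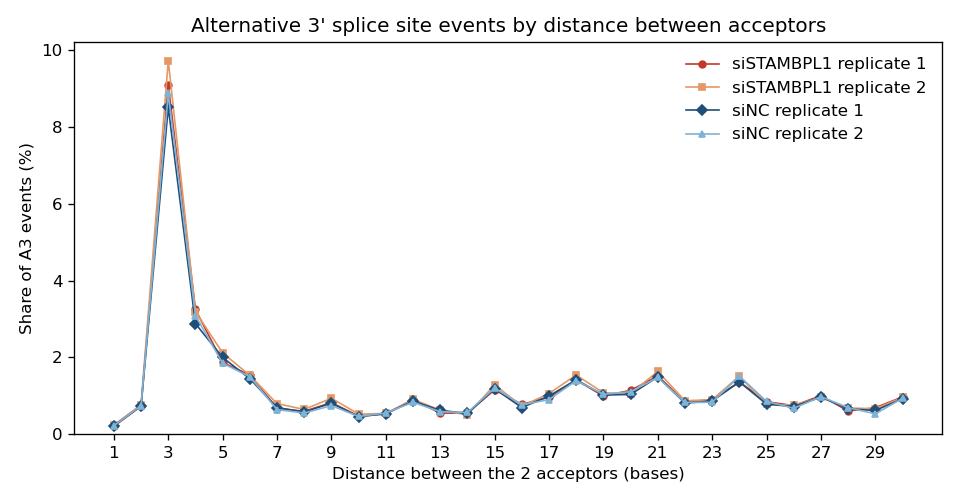
Share of A3 events (%, vertical axis) by distance between the 2 acceptors (bases, horizontal axis), with a line for each library. In each library the highest point is at 3 bases, at 9.09% and 9.73% in siSTAMBPL1 and 8.51% and 8.87% in siNC.

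The tandem sites were spread thinly over many genes. Of the 1461 genes, 1268 had 1 acceptor pair and 20 had at least 3. ZMIZ1, a transcriptional coactivator, had 5 pairs, each listed in all 4 libraries. Each pair had at most 1 PB transcript in a library and 0 downstream, and the sum over pairs was 18 upstream, in which a transcript that spans several pairs counts once for each. NCOR1, a nuclear receptor corepressor, also had 5 pairs listed in all 4 libraries, with 21 upstream and 12 downstream PB transcripts summed over pairs in the same way. SF3B2, a subunit of the SF3b complex that binds the branch point, had 3 pairs, with 16, 14 and 13 upstream PB transcripts and 0, 1 and 0 downstream. At 11 places the acceptors formed a run of 3, each 3 bases from the next. In CNBP, a zinc finger nucleic acid-binding protein, both pairs of such a run (chromosome 3, 129171283, 129171280 and 129171277, minus strand) were listed in all 4 libraries, and the 11 PB transcripts lay on the last acceptor. In the run of DDX3X, an RNA helicase, the first pair had 36 upstream and 15 downstream PB transcripts over 4 libraries. The second was listed in 1 library, with 6 and 1. Most pairs were joined to 1 donor, 1503 of 1652, while 149 were joined to several.

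Most of the pairs were known. Ensembl had transcripts on both acceptors of 1018 pairs (61.6%), on the upstream acceptor alone of 413 (25%), on the downstream alone of 148 (8.96%) and on neither of 73 (4.42%). Of the 1018 pairs known on both sides, 706 were listed in all 4 libraries, against 10 of 413, 18 of 148 and 0 of 73 in the other classes. Of the events, 751 of 1851 (40.6%) were listed in all 4 libraries and 662 (35.8%) in 1 library, against 27.4% and 50.5% of the other A3 events. The difference was smaller at equal annotation: where Ensembl has both forms, 66.9% of the 3-base events and 61.7% of the other A3 events were listed in all 4 libraries. At 4, 5, 6, 7 to 9 and 10 to 30 bases this share was 66.7%, 61.5%, 66.9%, 69.3% and 67.9%, on both sides of the 3-base share. It was 52.1% over 100 bases. Without regard to annotation, 42.4% of events 7 to 9 bases apart were listed in all 4 libraries, above the 40.6% at 3 bases. An event with an acceptor outside Ensembl needs a PB transcript on it to be listed, so its absence from a list does not show that the acceptor was unused.

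PB transcripts were found on 1527 of the 1652 pairs. Over the 4 libraries, 980 of these (64.2%) had PB transcripts on both acceptors, 353 on the upstream alone and 194 on the downstream alone. The median was 5 PB transcripts a pair. With at least 10 PB transcripts, 422 of 498 pairs (84.7%) had both acceptors in use, 339 had more on the upstream and 153 more on the downstream. In 234 of these 498 pairs (47.0%) the upstream share lay between 20% and 80%. These shares are partly set by the listing, because an acceptor outside Ensembl needs a PB transcript for its pair to be listed. This holds for the 413, 148 and 73 pairs with Ensembl transcripts on the upstream acceptor alone, the downstream alone or neither. Some pairs were near one end: SETD5, a chromatin regulator with a SET domain, had 0 and 0 upstream PB transcripts in siSTAMBPL1 and 1 and 0 in siNC, against 16 and 11 downstream in siSTAMBPL1 and 13 and 26 in siNC. FANCI, a Fanconi anaemia DNA repair protein, was at the other end, with 12 and 10 upstream in siSTAMBPL1, 24 and 14 in siNC, and 0 downstream in each library.

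The upstream acceptor held a smaller share of PB transcripts at 3 bases than at 4 to 6 bases. At 3 bases, 63.7% and 63.9% of PB transcripts were on the upstream acceptor in siSTAMBPL1 and 63.8% and 64.4% in siNC. The share ranged over the libraries from 82.2% to 83.8% at 4 bases, 80.5% to 83.4% at 5 and 83.0% to 86.2% at 6, and from 45.3% to 46.8% at 10 to 30 bases. The 3-base share was below that of 4 to 6 bases in 4 of 4 libraries, with a mean difference of -19.5 ± 1.07 points (SD, n = 4 libraries; exact two-sided paired permutation p = 0.125, the smallest that 4 libraries can give). For pairs with Ensembl transcripts on both acceptors the difference was -24.6 ± 0.608 points.

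**Figure D2:**
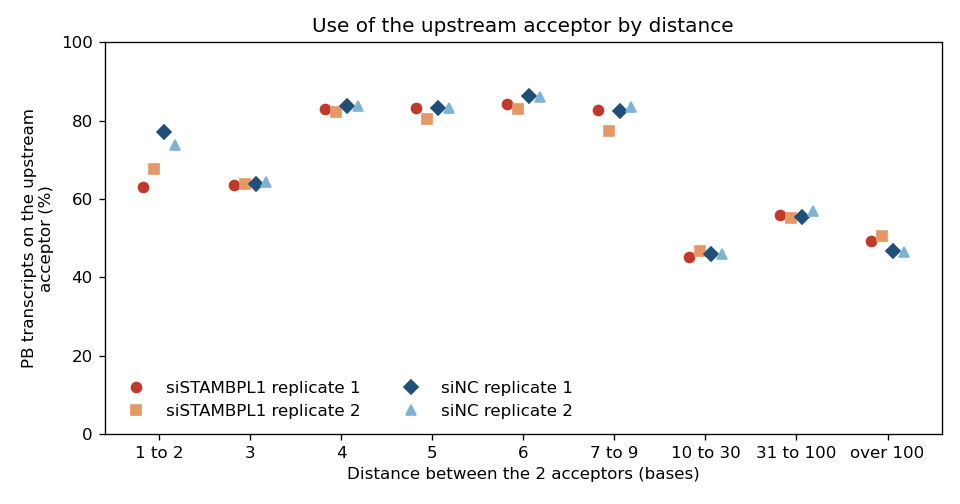
Share of PB transcripts on the upstream acceptor (%, vertical axis) by distance between the acceptors (bases, horizontal axis), with a point for each library. The 4 points at 3 bases lie between 63.7% and 64.4%, below the points at 4, 5 and 6 bases.

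The first question between the groups is whether siSTAMBPL1 libraries held more or fewer of these events. They listed 1165 and 1031, against 1246 and 1294 in siNC, a mean of 1098 ± 94.8 against 1270 ± 33.9 (SD, n = 2 each) and a ratio of 0.865. The siSTAMBPL1 values were both below the siNC values, with a two-sided p of 0.333 in an exact permutation test, where 2 against 2 libraries cannot reach a lower one. The siSTAMBPL1 libraries also held fewer PB transcripts in all, 25463 and 17584 against 32307 and 32750 (ratio of means 0.662), and the part of this in the result was not tested.

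As a share of A3 events, the tandem sites made up more of both siSTAMBPL1 lists than of either siNC list. They accounted for 9.09% (exact 95% interval 8.60 to 9.60) and 9.73% (9.17 to 10.3) in siSTAMBPL1, against 8.51% (8.07 to 8.98) and 8.87% (8.42 to 9.35) in siNC. The groups did not overlap, with a difference of 0.715 points (exact permutation p = 0.333), while the intervals of siSTAMBPL1 replicate 1 and siNC replicate 2 overlapped. The intervals cover counting error only. Where Ensembl has both forms, the difference was 0.0705 points and the groups overlapped. It was 0.396 points without siSTAMBPL1 replicate 2, the library with the fewest PB transcripts.

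The share of events seen in both forms also separated the groups. Of events with a PB transcript, 41.1% and 35.5% had PB transcripts in both forms in siSTAMBPL1, against 45.6% and 46.7% in siNC (difference -7.82 points, exact permutation p = 0.333). The groups did not overlap, and the order over libraries was the same as that of their PB transcripts. An acceptor outside Ensembl needs a PB transcript for its event to be listed, so the listing enters this share in both groups. PB transcripts on the tandem sites averaged 3075.5 in siSTAMBPL1 and 4863 in siNC, a ratio of 0.632, and the part of this in the result was not tested. The share of PB transcripts on the upstream acceptor overlapped between the groups, at 63.8% ± 0.113 in siSTAMBPL1 and 64.1% ± 0.396 in siNC (SD, n = 2 each; difference -0.336 points, exact permutation p = 0.667). With Ensembl transcripts on both acceptors the difference was 0.116 points. With Ensembl transcripts on the upstream acceptor alone, the shares were 70.0% and 63.2% in siSTAMBPL1, below 73.4% and 74.8% in siNC. On the downstream alone they were 53.9% and 62.4% in siSTAMBPL1, above 39.6% and 47.0% in siNC. With neither acceptor in Ensembl the groups overlapped. In the upstream-alone and downstream-alone classes, the acceptor outside Ensembl thus held a larger share in both siSTAMBPL1 libraries than in either siNC library. A pair of these classes is listed only with a PB transcript on that acceptor. The upstream-alone class held 663 and 378 PB transcripts in siSTAMBPL1, against 797 and 1024 in siNC. The downstream-alone class held 193 and 125 in siSTAMBPL1, against 313 and 251 in siNC. The part of the listing and of these numbers in the result was not tested. The median share per pair, over pairs with at least 5 PB transcripts in the library, was 80% and 78.5% in siSTAMBPL1 (267 and 164 pairs), against 74.2% and 75% in siNC (346 and 343 pairs). These medians did not overlap between the groups and lay the other way from the pooled share. They rest on different pairs in each library, with fewer pairs in siSTAMBPL1, and the part of this in the result was not tested.

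Acceptor use of a pair was similar from library to library. For the 90 pairs with at least 5 PB transcripts in every library, the upstream shares of 2 libraries had Pearson correlations of 0.877 to 0.919 over pairs, with a median absolute difference of 6.16 to 7.95 points. These points are acceptor pairs, not independent replicates, and the libraries share the cell line. The correlation was 0.902 between the siSTAMBPL1 replicates and 0.919 between the siNC replicates. With replicates summed, 64 of 90 pairs differed by at most 10 points between the groups and 83 by at most 20. The largest difference was at WAC, an adaptor in histone H2B ubiquitination, with 1 and 4 upstream and 10 and 4 downstream PB transcripts in siSTAMBPL1, against 5 and 7 upstream and 3 and 3 downstream in siNC. WAC was picked after its values were seen, and its upstream share was 26.3% in siSTAMBPL1 and 66.7% in siNC.

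**Figure D3:**
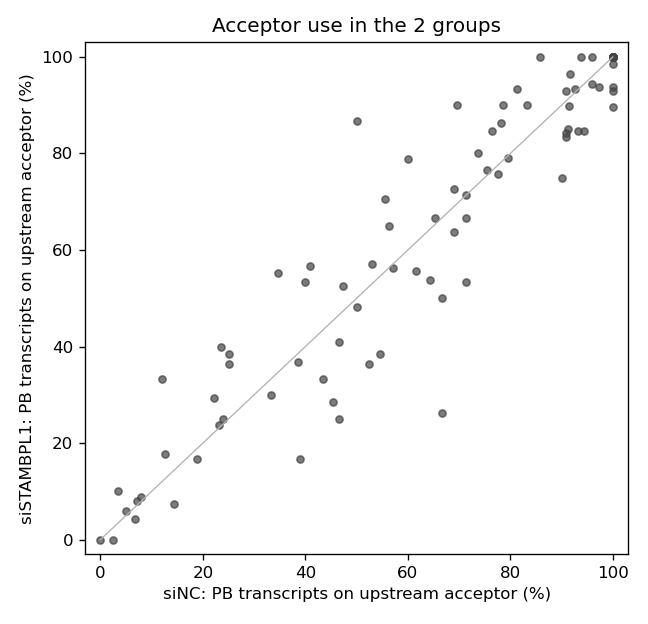
Upstream share in siSTAMBPL1 (%, vertical axis) against upstream share in siNC (%, horizontal axis) for the 90 pairs with at least 5 PB transcripts in every library, replicates summed, with the line of equal shares. Of the 90 points, 64 lie within 10 points of the line, and WAC lies farthest from it at 26.3% against 66.7%.

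Of the 15 pairs with the most PB transcripts on their less used acceptor, among genes with a symbol, 14 are described here and show the spread in full. CELF1, an RNA-binding splicing and decay regulator (chromosome 11, acceptors 47476959 and 47476956, minus strand), had 19 and 15 upstream and 10 and 16 downstream PB transcripts in siSTAMBPL1, against 19 and 15 upstream and 27 and 22 downstream in siNC. Its upstream shares were 65.5% and 48.4% in siSTAMBPL1 and 41.3% and 40.5% in siNC, so the groups did not overlap and the siNC values lay close together. EIF4G1, the scaffold of the cap-binding complex (chromosome 3, 184323405 and 184323408, plus strand), had 2 and 7 upstream and 14 and 13 downstream in siSTAMBPL1, against 11 and 16 upstream and 15 and 16 downstream in siNC. Its shares of 12.5% and 35.0% in siSTAMBPL1 lay below 42.3% and 50% in siNC. SEMA3B, a secreted semaphorin (chromosome 3, 50273913 and 50273916, plus strand), had 10 and 6 upstream and 7 and 6 downstream in siSTAMBPL1, against 7 and 10 upstream and 14 and 18 downstream in siNC. Its shares of 58.8% and 50% in siSTAMBPL1 lay above 33.3% and 35.7% in siNC.

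CAST, which encodes the calpain inhibitor calpastatin (chromosome 5, 96765221 and 96765224, plus strand), had the most PB transcripts of the 14, with 46 and 33 upstream and 10 and 11 downstream in siSTAMBPL1, against 66 and 66 upstream and 11 and 23 downstream in siNC. Its groups overlapped, at 82.1% and 75% in siSTAMBPL1 and 85.7% and 74.2% in siNC. SLC26A6, an anion exchanger, also overlapped, at 52.4% and 27.8% in siSTAMBPL1 and 52.9% and 40.5% in siNC.

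IGF1R, the insulin-like growth factor 1 receptor and a textbook tandem acceptor gene (chromosome 15, 98929558 and 98929561, plus strand), had 8 and 7 upstream and 6 and 6 downstream in siSTAMBPL1, against 14 and 10 upstream and 8 and 7 downstream in siNC. Its shares of 57.1% and 53.8% in siSTAMBPL1 were just below 63.6% and 58.8% in siNC. SAMD11 and EIF4A2, a helicase of translation initiation, were also lower in both siSTAMBPL1 libraries, EIF4A2 with 20.0% and 36.4% in siSTAMBPL1 and 50% and 40.0% in siNC. PAM, a peptide-amidating enzyme, and ZC3H14, a poly(A)-binding protein, were higher in both, ZC3H14 with 50% and 57.1% in siSTAMBPL1 and 40.0% and 40.0% in siNC. TTLL5, EPS8L3, SUPT20H and MTHFD1L overlapped between the groups. Of the 14 pairs, 4 were higher and 4 lower in both siSTAMBPL1 libraries without overlap, and 6 overlapped. Over the 572 A3 pairs of any distance with at least 5 PB transcripts in every library and both acceptors in use, 14.7% were higher and 14.7% lower without overlap, and over the 75 of these that were 3 bases apart, 16 (21.3%) were higher and 11 (14.7%) lower.

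**Figure D4:**
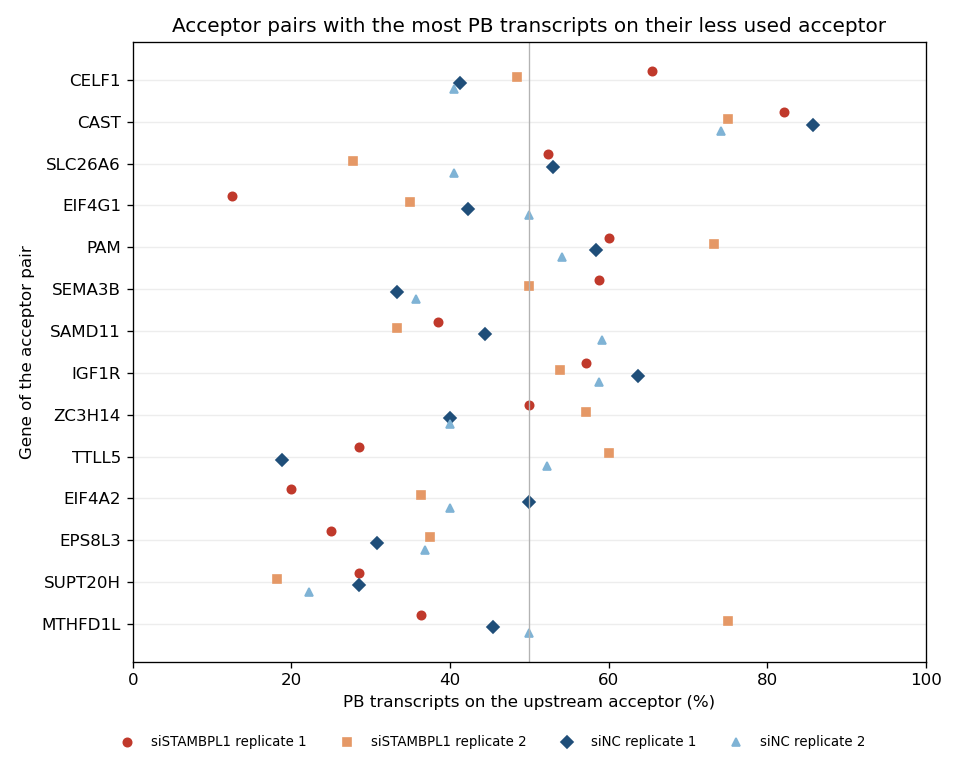
Upstream share (%, horizontal axis) in each library for 14 of the 15 pairs with the most PB transcripts on their less used acceptor, among genes with a symbol, ordered by that number from the top. In CELF1, PAM, SEMA3B and ZC3H14 both siSTAMBPL1 points lie above both siNC points, and in EIF4G1, SAMD11, IGF1R and EIF4A2 both lie below.

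A fit across all A3 pairs tested acceptor choice, as the log2 ratio of upstream to downstream PB transcripts. limma with Benjamini-Hochberg adjustment tested 2235 pairs and called 0 (0.0%) at an adjusted p under 0.05, with a smallest adjusted p of 0.743, and 142 pairs (6.35%) had an unadjusted p under 0.05. Of 369 tandem pairs tested, 0 were called and 27 (7.32%) had an unadjusted p under 0.05, 11 of them higher in siSTAMBPL1 (3.27% of all pairs tested were) and 16 lower (3.09% were). Of the 369, 181 lay above 0 and 186 below, with a median of 0. The groups did not overlap in 57 tandem pairs that were higher (15.4%, against 14.8% of all pairs tested) and in 49 that were lower (13.3%, against 14.7%). On simulated data the same fit recovered 0 of 100 changes of 4 on the log2 scale, so a count of 0 calls says nothing about changes of that size.

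The log2 change was 0.92 in CELF1 (SE 0.678, adjusted p = 0.800 by limma), -1.48 in EIF4G1 (SE 0.837, adjusted p = 0.792) and 1.13 in SEMA3B (SE 0.613, adjusted p = 0.787). Without siSTAMBPL1 replicate 1 it was 0.43 in CELF1 and -0.63 in EIF4G1, and without siSTAMBPL1 replicate 2 it was 1.41 in CELF1 and -2.32 in EIF4G1. The most negative log2 change among the tandem pairs in genes with a symbol was in HDAC5, a class II histone deacetylase (chromosome 17, 44110803 and 44110800, minus strand). It had 0 and 0 upstream and 4 and 3 downstream PB transcripts in siSTAMBPL1, against 7 and 8 upstream and 3 and 8 downstream in siNC (log2 change -3.54, SE 0.709, adjusted p = 0.743 by limma). The groups did not overlap, and the 2 siSTAMBPL1 libraries held 7 PB transcripts together. At the other end TUBGCP5, a component of the gamma-tubulin ring, had 1 and 1 upstream and 1 and 0 downstream in siSTAMBPL1, against 0 and 1 upstream and 7 and 6 downstream in siNC (log2 change 3.80, SE 1.01, adjusted p = 0.743). SRSF11, an SR protein, followed with 4 and 3 upstream and 0 and 0 downstream in siSTAMBPL1, against 2 and 0 upstream and 1 and 2 downstream in siNC (log2 change 3.78, SE 1.21, adjusted p = 0.743; 2.25 without siNC replicate 2). RHPN1, MRPL42 and ABHD6 had the next 3 positive changes, of 2.93 to 3.36. PHF20L1, ENTPD6, PRPF40B and RBM39 had the next negative ones, of -3.35 to -2.92. The value of PHF20L1 rested on single libraries, at -3.35 over all 4, -1.16 without siNC replicate 2 and -5.55 without siNC replicate 1. MRPL42, a mitochondrial ribosomal protein, rested on 1 PB transcript in each library.

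Few tandem events were listed in both libraries of 1 group and in neither of the other. In siSTAMBPL1 alone there were 23 (1.24%), against 1.28% of all A3 events, and in siNC alone 78 (4.21%), against 4.23%. These shares are near those of all A3 events. Mixed pairs of 1 library from each group listed alone 23 to 50 tandem events. The 23 events of siSTAMBPL1 lay on 22 pairs, of which 13 had Ensembl transcripts on 1 acceptor, and in 10 of these 13 the listing rested on 2 PB transcripts on the other acceptor, 1 in each library.

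PRR5L encodes a binding partner of the mTORC2 complex (chromosome 11, 36393846 and 36393849, plus strand). Among genes with a symbol it had the most PB transcripts of the pairs listed in siSTAMBPL1 alone, with 5 and 5 upstream and 1 and 1 downstream. In SF3B3, a subunit of SF3b (chromosome 16, 70524864 and 70524867, plus strand), there were 1 and 2 upstream and 1 and 1 downstream. The others named by this rule were LINC01270, SEC24D, RBBP5, UBE3B, FAM204A, ZNF540, TRAPPC12 and MAST3, with 2 to 6 PB transcripts each. Among pairs listed in siNC alone, NPAS2, a circadian transcription factor (chromosome 2, 100932910 and 100932913, plus strand), had 33 and 26 upstream and 1 and 1 downstream PB transcripts. FANCD2, a Fanconi anaemia protein, had 5 and 9 upstream and 1 and 2 downstream. In these 2 pairs Ensembl has the upstream acceptor alone, so the listing turned on the 2 or 3 PB transcripts on the downstream acceptor. PPFIA1, a liprin, had Ensembl transcripts on both acceptors, with 2 and 1 upstream and 6 and 6 downstream in siNC. The others named by the same rule were PASD1, TTF2, ULK4, KIFC3, SMG1 and BBS9.

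Of the 18 textbook tandem acceptor genes, 13 had any event and 7 had a tandem pair, 10 pairs in all. GNAS, the stimulatory G protein alpha subunit, had 0 upstream PB transcripts in each library, with 7 and 1 downstream in siSTAMBPL1 and 4 and 4 in siNC. BAIAP2, a cytoskeletal adaptor, was also on the downstream acceptor alone, with 4 and 2 in siSTAMBPL1 and 7 and 4 in siNC. STAT3, a transcription factor of cytokine signalling, used both acceptors, with 3 and 2 upstream and 5 and 3 downstream in siSTAMBPL1, against 2 and 4 upstream and 3 and 2 downstream in siNC. BRCA1 had 3 pairs, and the pair at 43099880 and 43099877 on chromosome 17 had 2 and 1 upstream and 0 and 0 downstream in siSTAMBPL1, against 3 and 3 upstream and 1 and 0 downstream in siNC. Its pair at 43076614 and 43076611 was mixed, with 1 and 0 upstream and 1 and 1 downstream in siSTAMBPL1. In siNC that pair had 3 and 1 upstream and 0 and 2 downstream. The last BRCA1 pair was listed in siSTAMBPL1 replicate 1 alone, with 1 upstream and 1 downstream. ING4 was listed in all 4 libraries with 1 PB transcript, in siNC replicate 1, and MITF in 2 libraries. A second IGF1R pair (98916669 and 98916672) was listed in siNC replicate 1 alone, with 1 upstream and 21 downstream PB transcripts.

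Genes of the splicing machinery carried tandem acceptors themselves, as did 1443 of the 11931 Ensembl genes with any event. Of 31 genes of branch point and acceptor recognition, 27 had any event and 8 had a pair, 10 pairs in all. PB transcripts summed over pairs numbered 196 upstream and 15 downstream. Of the upstream ones, 76 were from RBM39, 51 from HNRNPC and 43 from the pairs of SF3B2. RBM39, a U2AF-related splicing factor (chromosome 20, 35729365 and 35729362, minus strand), had 8 and 18 upstream and 2 and 1 downstream in siSTAMBPL1, against 18 and 32 upstream and 0 and 0 downstream in siNC (log2 change -2.92, SE 0.910, adjusted p = 0.743 by limma). The downstream acceptor was thus seen in both siSTAMBPL1 libraries and neither siNC library, on 3 PB transcripts. With a pseudocount of 1 the log2 change of RBM39 was -2.23. HNRNPC had 9 and 6 upstream and 1 and 0 downstream in siSTAMBPL1, against 18 and 18 upstream and 0 and 0 downstream in siNC. SF1, the branch point-binding protein, had PB transcripts on both acceptors in each library, with 4 and 1 upstream and 1 and 1 downstream in siSTAMBPL1, against 2 and 1 upstream and 1 and 1 downstream in siNC. Ensembl has the downstream acceptor of SF1 alone, so its listing needed PB transcripts on the upstream one.

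Of 30 factors that act late at the 3' splice site, 25 had any event and 3 had a pair, namely SRRM1, SRRM2 and BUD31. SRRM1, a coactivator of splicing, had 3 and 8 upstream and 0 and 2 downstream in siSTAMBPL1, against 9 and 15 upstream and 5 and 1 downstream in siNC at its pair listed in all libraries. Of 18 SR proteins and their kinases, 8 had 11 pairs. SRSF10 had 3 and 5 upstream and 1 and 3 downstream in siSTAMBPL1, against 7 and 8 upstream and 0 and 2 downstream in siNC. The kinase CLK2, at its pair at 155269716 on chromosome 1, had 2 and 1 upstream and 2 and 1 downstream in siSTAMBPL1, against 4 and 6 upstream and 3 and 3 downstream in siNC.

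Among 42 hnRNP and other regulators, 40 had any event and 10 had 16 pairs. A second pair of CELF1 (47484523 and 47484520) was almost wholly upstream, with 30 and 34 upstream and 1 and 0 downstream in siSTAMBPL1, against 47 and 39 upstream and 0 and 0 downstream in siNC. EWSR1, an RNA-binding protein of the FET family, had a pair with mainly downstream use (chromosome 22, 29273738 and 29273741, plus strand), with 1 and 1 upstream and 7 and 11 downstream in siSTAMBPL1, against 0 and 1 upstream and 8 and 21 downstream in siNC. Its other pair (29291562 and 29291565) was mixed, with 4 and 4 upstream and 3 and 3 downstream in siSTAMBPL1, against 5 and 4 upstream and 1 and 7 downstream in siNC.

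In the other lists, ubiquitin and endosomal sorting had 16 pairs in 13 of 61 genes (60 with any event) and chromatin regulators 29 in 16 of 54 (51). DNA repair and replication had 9 in 9 of 48 (48), and growth signalling 6 in 4 of 51 (45). UCHL5, a proteasomal deubiquitinase, had 4 and 3 upstream and 1 and 3 downstream in siSTAMBPL1, against 11 and 9 upstream and 4 and 5 downstream in siNC. USP28, another deubiquitinase, had 2 and 2 upstream and 3 and 4 downstream in siSTAMBPL1, against 2 and 3 upstream and 9 and 6 downstream in siNC. KDM5C, a histone demethylase, had 2 and 2 upstream and 2 and 2 downstream in siSTAMBPL1, against 9 and 6 upstream and 3 and 2 downstream in siNC. ERCC2, a helicase of TFIIH, had 1 and 0 upstream and 7 and 4 downstream in siSTAMBPL1, against 0 and 0 upstream and 6 and 7 downstream in siNC. The tumour suppressor TSC1 had 2 and 2 upstream and 2 and 1 downstream in siSTAMBPL1, against 2 and 3 upstream and 2 and 1 downstream in siNC.

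Events per gene were then compared for the factors that read acceptors. STAMBPL1 itself had 1 and 1 events in siSTAMBPL1, against 3 and 6 in siNC (log2 change -1.14, SE 0.470, adjusted p = 0.743 by limma; -0.75 without siNC replicate 2), and no tandem pair. This number does not measure expression. Over all genes, limma tested 9933 and called 0 (0.0%), and 293 (2.95%) lay higher in siSTAMBPL1 and 434 (4.37%) lower with an unadjusted p under 0.05. On simulated data this fit recovered 19 of 100 changes of 3 on the log2 scale. The events were scaled for the library total. Without this scaling 186 genes lay higher and 994 lower at that threshold, and the median over all genes was -0.29. The siSTAMBPL1 libraries held fewer PB transcripts, and the part of this in the events per gene was not tested. Of 26 genes of branch point and acceptor recognition tested, 0 were called, 5 lay above 0 and 21 below, with a median of -0.33 against 0.05 over all genes. At an unadjusted p under 0.05, 4 of the 26 were lower and 0 higher: U2AF1L4, U2AF2, PTBP1 and SF3B3. U2AF1L4, a paralogue of the small subunit of U2AF, had the most negative value of the list, with 0 and 0 events in siSTAMBPL1 and 13 and 9 in siNC (log2 change -3.40, SE 0.417, adjusted p = 0.372, a size that depends on the pseudocount). Events of U2AF2, the large subunit of U2AF, numbered 2 and 2 in siSTAMBPL1 and 10 and 6 in siNC (log2 change -1.23, SE 0.391, adjusted p = 0.631). Of 24 late factors tested, 0 were called, 13 lay above 0 and 11 below, with a median of 0.03. PPWD1 alone of these had an unadjusted p under 0.05, and was higher (log2 change 0.97, SE 0.320, adjusted p = 0.631 by limma). Of 18 SR proteins and kinases tested, 14 lay above 0 and 4 below, with a median of 0.27. At that threshold chromatin regulators had 5 lower and 1 higher of 49, and hnRNP and other regulators 4 lower and 1 higher of 38. Growth signalling had 4 lower and 0 higher of 44, and ubiquitin and endosomal sorting 1 lower and 4 higher of 60.

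Markers were listed only where the gene had an alternative splicing event. None of 9 hepatocyte markers, ALB and AFP included, had any event (0 of 9), so the labelled cell type could not be checked on them. Of 9 immune markers CD68 alone had events, with 2 and 2 in siSTAMBPL1 and 3 and 2 in siNC, and of 11 stromal and endothelial markers 3 had any. Immune and stromal markers held 0 tandem pairs. Of 46 hepatocyte and liver metabolism genes 19 had any event, and among them INSR, the insulin receptor, held 1 pair.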

How the data were processed

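The authors deposited 1 list of alternative splicing events for each of the 4 libraries. Per the file headers, each event gives its gene, its coordinates and the transcripts of each form, as text with no counts, fractions or other quantities. Coordinates are on hg38, the build in the submitters' processing notes. The sources used here name neither the aligner nor the software that called transcripts and events, and depth in reads is unknown. The upstream acceptor was taken from the first junction of an event, after orientation was checked against skipped exon junctions with 0 disagreements. Acceptor pairs of a gene were merged over donors. PB transcripts were counted on each acceptor. Gene symbols came from the RefSeq table of GRCh38.p14, by position and strand, for 10652 of 11931 Ensembl genes (89.3%), and are assignments by position. Sequences came from RefSeq promoter windows.

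Acceptor choice was log2 of upstream over downstream PB transcripts, each with a pseudocount of 0.5, for A3 pairs with a PB transcript in every library and both acceptors in use. Events per gene were scaled to the library total, with a pseudocount of 1, for genes with at least 5 events. Both were fitted with limma 3.58.1 (R 4.3.3) and adjusted by Benjamini-Hochberg over all features. The pseudocounts can understate changes of features with few transcripts or events. Acceptor choice was not scaled for the PB transcripts of a library. Where an acceptor had no PB transcript, the log2 ratio therefore also depended on the number on the other acceptor. Such a log2 change can be overstated. Group values were compared by exact two-sided permutation tests (scipy 1.17.1). The fits were tested on simulated data. The main fits did not pair the libraries by replicate number. Deviations from the group means in same-numbered libraries had correlations of 0.040 (acceptor choice) and 0.019 (events per gene). With few PB transcripts a pair, such values cannot exclude that same-numbered libraries were handled together.

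Named pairs were the textbook genes with a pair, the 15 pairs with the most PB transcripts on the less used acceptor, up to 10 pairs listed in 1 group alone, the 5 largest changes each way, the splicing lists, and up to 4 examples from each other list. These rules ranked only pairs in genes with a symbol. The members and lists were chosen with earlier results of these data known. Pairs on chromosome 8 and pairs outside promoter windows have no sequence shown. Some results are not reported here.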

Additional observations from a re-analysis of the deposited data

How the results depend on the processing

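The number of tandem events, their share of A3 events and the share with PB transcripts in both forms kept their direction under the alternatives run, and no alternative reached an adjusted p under 0.05 in either fit. Leaving out 1 library at a time gave differences of -239 to -105 events, 0.396 to 1.03 points of A3 events (lowest without siSTAMBPL1 replicate 2), -10.6 to -5.02 points with PB transcripts in both forms, and -0.616 to -0.0558 points on the upstream acceptor. The difference in upstream share, -0.336 points, turned to 0.116 where Ensembl had both acceptors, an alternative chosen after seeing the data. Events listed in 1 group alone numbered 9 in siSTAMBPL1 and 42 in siNC where Ensembl had both forms, and 13 and 40 in genes with PB transcripts in all 4 libraries. They ranged from 42 to 184 in siSTAMBPL1 and from 132 to 295 in siNC when 1 library was left out, which by construction needs fewer libraries to match. The replicate block gave 0 calls in either fit, with 97 pairs (142 without it) and 557 genes (727 without it) at an unadjusted p under 0.05. Events per gene depended on the scaling for the library total. Without it 1180 genes had an unadjusted p under 0.05, 186 higher in siSTAMBPL1 and 994 lower. The smallest adjusted p by limma was then 0.0910, against 0.320 in the main fit. The median log2 change was -0.29, against 0.05. Group tests with 2 against 2 libraries cannot give a p below 0.333, and the median was 5 PB transcripts a pair over 4 libraries.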
